A study of Homo sapiens with 10 samples.

Results

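The clustered protocadherin genes code for cell-surface adhesion proteins and lie side by side on chromosome 5. All protein-coding genes of the PCDHA, PCDHB, PCDHGA, PCDHGB and PCDHGC series in the annotation were taken, which gave 53 genes of the 20098 that code for protein on the autosomes and X. The 15 alpha, 16 beta and 22 gamma genes all read from the plus strand of chr5:140165721-140892544 (hg19), a span of 727 kb. Each alpha and gamma gene joins a variable first exon of its own to 3 constant exons shared by its cluster, whereas the beta genes have no constant exons. The variable exon carries its own promoter and codes for the cadherin repeats outside the cell and for the membrane-spanning segment. In neurons, the set of isoforms that a cell uses gives its surface an identity that lets its branches recognise and avoid each other, and promoter choice is known to depend on CTCF and cohesin bound at a conserved promoter element with a CGCT core.

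The study asked where on the genome the histone reader ZMYND8 sits in relation to H3K14ac and H3K27ac. Its 10 samples were ChIP-seq of H3K14ac, H3K27ac, ZMYND8 and FLAG-ZMYND8 in 2 replicates and 2 input samples, all from HEK293, an established human embryonic kidney line. Only the peak lists of ZMYND8 and FLAG-ZMYND8 were used, and the histone marks and inputs were not analysed here. For the FLAG-ZMYND8 ChIP, Flp-In T-REx HEK293 cells made 3×FLAG-ZMYND8 under an inducible promoter with 10 nM doxycycline, so the tagged protein came on top of the cells' own. The labels of the antibody ChIP describe cells stably expressing the tagged protein as WT or with N228F, a bromodomain mutation, and do not say which. A peak list cannot check the cell type against markers, and HEK293 is not a neuronal line.

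Replicates are not told apart in either list and reads are not counted, so neither the depth nor the replicate error is known. Its score was 1 at every peak. The ZMYND8 list held 15086 peaks and the FLAG-ZMYND8 list 63690, or 4.22 times as many, and at 53% and 54.7% of them the width was the smallest of the list, 151 and 167 bp. Every value here is therefore a position or a count, without a test, and a gene without a peak is a gene at which the authors' calling listed none.

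Of all these peaks, 4 of the ZMYND8 list and 3 of the FLAG-ZMYND8 list had their midpoint in the 727 kb of the protocadherin genes. The FLAG-ZMYND8 list, the longer over the genome, thus held 3 peaks here against 4, an order that depends on where the region ends. Further FLAG-ZMYND8 peaks had their midpoints 425 and 1134 bp past the last member base. In the variable first exons alone the order was the reverse, with 1 ZMYND8 and 3 FLAG-ZMYND8 peaks. None of the 7 in the region overlapped a peak of the other list, and the nearest pair of midpoints lay 50880 bp apart. No share of overlapping peaks over the whole lists is given here, so this cannot be read as particular to these genes. The variable first exons held 4 of the 7, at PCDHA11, PCDHGB3, PCDHGA11 and PCDHGC3, and the other 3 lay in exons of other genes and pseudogenes. The beta genes had no peak in a variable exon.

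**Figure D1:**
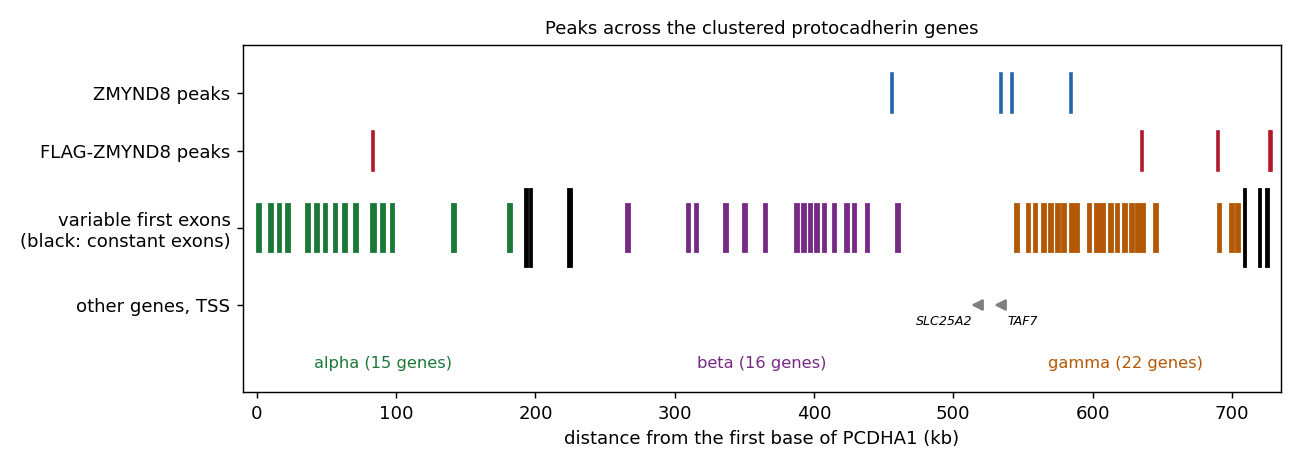
Map of the clustered protocadherin genes drawn to scale along the distance from the first base of PCDHA1 in kb. The rows show ZMYND8 peaks (blue), FLAG-ZMYND8 peaks (red), variable first exons of the 15 alpha (green), 16 beta (purple) and 22 gamma (orange) genes with the constant exons in black, and the start sites of SLC25A2 and TAF7; narrow features are widened to stay visible. The red mark at the right edge is a pair of peaks just past the last gamma exon, and no blue mark lies among the alpha genes.

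The sequences of the peaks inside variable coding exons are shown because they are the places where the lists meet the genes. They were read from the plus strand of hg19, and capitals mark CpG dinucleotides.
PCDHA11 (FLAG-ZMYND8, chr5:140248735-140248949, plus strand): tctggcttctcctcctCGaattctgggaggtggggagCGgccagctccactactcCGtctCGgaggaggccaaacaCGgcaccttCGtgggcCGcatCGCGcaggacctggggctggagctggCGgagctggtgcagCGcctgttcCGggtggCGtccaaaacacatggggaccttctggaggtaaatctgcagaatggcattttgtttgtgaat
PCDHGB3 (ZMYND8, chr5:140749999-140750149, plus strand): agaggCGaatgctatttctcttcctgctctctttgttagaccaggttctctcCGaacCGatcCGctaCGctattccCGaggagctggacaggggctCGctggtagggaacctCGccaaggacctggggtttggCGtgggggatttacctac
PCDHGA11 (FLAG-ZMYND8, chr5:140800828-140801080, plus strand): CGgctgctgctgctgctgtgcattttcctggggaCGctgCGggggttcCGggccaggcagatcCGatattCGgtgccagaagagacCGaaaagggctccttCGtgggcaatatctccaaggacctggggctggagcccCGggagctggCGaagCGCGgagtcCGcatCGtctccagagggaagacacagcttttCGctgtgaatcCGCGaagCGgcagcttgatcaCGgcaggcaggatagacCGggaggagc
The peak at PCDHA11 was 215 bp wide with 13 CpG sites and a GC content of 60.9%. The peak at PCDHGB3 was 151 bp wide, the smallest width of its list, with 9 CpG sites and 57% GC. The peak at PCDHGA11 was 253 bp wide with 20 CpG sites and 63.2% GC. All 3 lay wholly in coding sequence and began at a similar place in the gene, 46 bp after the first base of the start codon in PCDHA11, 37 bp in PCDHGB3 and 33 bp in PCDHGA11. That stretch of a variable exon codes for the start of the protein, where the signal peptide gives way to the first cadherin repeat.

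The PCDHGC3 peak of the FLAG-ZMYND8 list, chr5:140855536-140855702 on hg19, had another position. It was 167 bp wide, the smallest width of its list, and 148 of its bases preceded the start codon while 19 were coding. It held 12 CpG sites at 58.7% GC, and its midpoint lay 105 bp downstream of the TSS. PCDHGC3 is a C-type gene, one of the 5 at the ends of the alpha and gamma clusters, whose use in neurons is known to be less random than that of the others.

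Variable exons of a cluster resemble each other, so the uniqueness of the peaks' sequence was measured as the share of their 50-base words that occur once in hg19. The share was 100% at PCDHGB3, PCDHGA11 and PCDHGC3 and 69.3% at PCDHA11. Of the 166 words in the PCDHA11 peak, 40 were also found in PCDHA10 and 14 in PCDHA9. A 50-base read equal to a shared word cannot be placed by sequence alone, whereas a longer read over it may be. The part of such reads in the PCDHA11 peak was not tested. Around the member TSSs themselves, the share of unique words within 1 kb had a median of 99.7% and ranged from 61.3% to 100%, with 42 of the 53 genes at 90% or above. The lowest values belonged to PCDHB8 and PCDHB13, which share 755 words with each other.

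At the TSS, taken as the annotated 5′ end of the gene, a peak was assigned to a gene when its midpoint lay within 1 kb. In the ZMYND8 list 1 of the 53 genes had such a peak, PCDHGB3, at 265 bp downstream. This is 1.89% of the genes beside a background of 28.5% over all protein-coding genes. In the FLAG-ZMYND8 list 2 of 53 had a peak, PCDHGA11 at 340 bp and PCDHGC3 at 105 bp downstream. This is 3.77% beside a background of 49.3%. No gene had a peak in both lists, and 50 had none in either. Of all 20098 protein-coding genes, 4559 had a peak in both lists and 9022 in neither. PCDHA11 lay just outside the window, with its peak midpoint 1074 bp downstream of the annotated TSS.

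The place of that TSS matters for PCDHA11, whose annotated 5′ end lies 921 bp before the start codon. In 49 of the 53 genes the distance was 300 bp or less, with a median of 177 bp. The other 4 were PCDHA9 with 724 bp, PCDHA11, PCDHAC1 with 594 bp and PCDHGA8 with 2657 bp. Measured from the start codon, the PCDHA11 peak midpoint was 153 bp downstream, next to 159 bp at PCDHGA11 and 112 bp at PCDHGB3. With any annotated transcript start in place of the gene start, the FLAG-ZMYND8 count was 3 of 53, PCDHA11 included. The background at that setting was 59%.

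By cluster, neither list had an alpha or a beta gene within the window. Gamma genes had 1 of 22 in the ZMYND8 list, or 4.55%, and 2 of 22 in the FLAG-ZMYND8 list, or 9.09%. Of the C-type genes only PCDHGC3 had a peak. PCDHAC1 lay 57042 bp from the nearest FLAG-ZMYND8 midpoint and PCDHAC2 97213 bp. The gamma pair PCDHGC4 and PCDHGC5 lay 8945 and 13029 bp past the PCDHGC3 peak. In the ZMYND8 list the nearest midpoint was over 100 kb away for all 5, from 105440 bp at PCDHGC3 to 275331 bp at PCDHAC2.

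The distance to the nearest peak varied along the array. For ZMYND8 it ranged from 265 bp at PCDHGB3 to 275331 bp at PCDHAC2, with a median of 60000 bp beside 19045.5 bp for all protein-coding genes. Of all protein-coding genes, 30.9% were at or beyond the members' median. The cluster medians were 150048 bp for alpha, 61739.5 bp for beta and 20029 bp for gamma. For FLAG-ZMYND8 the range was 105 bp at PCDHGC3 to 271316 bp at PCDHB6, with a median of 60183 bp beside 1069 bp for all protein-coding genes, of which 15.5% were at or beyond it. Here the cluster medians were 41279 bp for alpha, 230122 bp for beta and 32459.5 bp for gamma. The beta genes were thus the farthest from a FLAG-ZMYND8 peak and the alpha genes from a ZMYND8 peak. Neighbouring genes measure to the same few peaks, so these distances are not independent of each other.

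**Figure D2:**
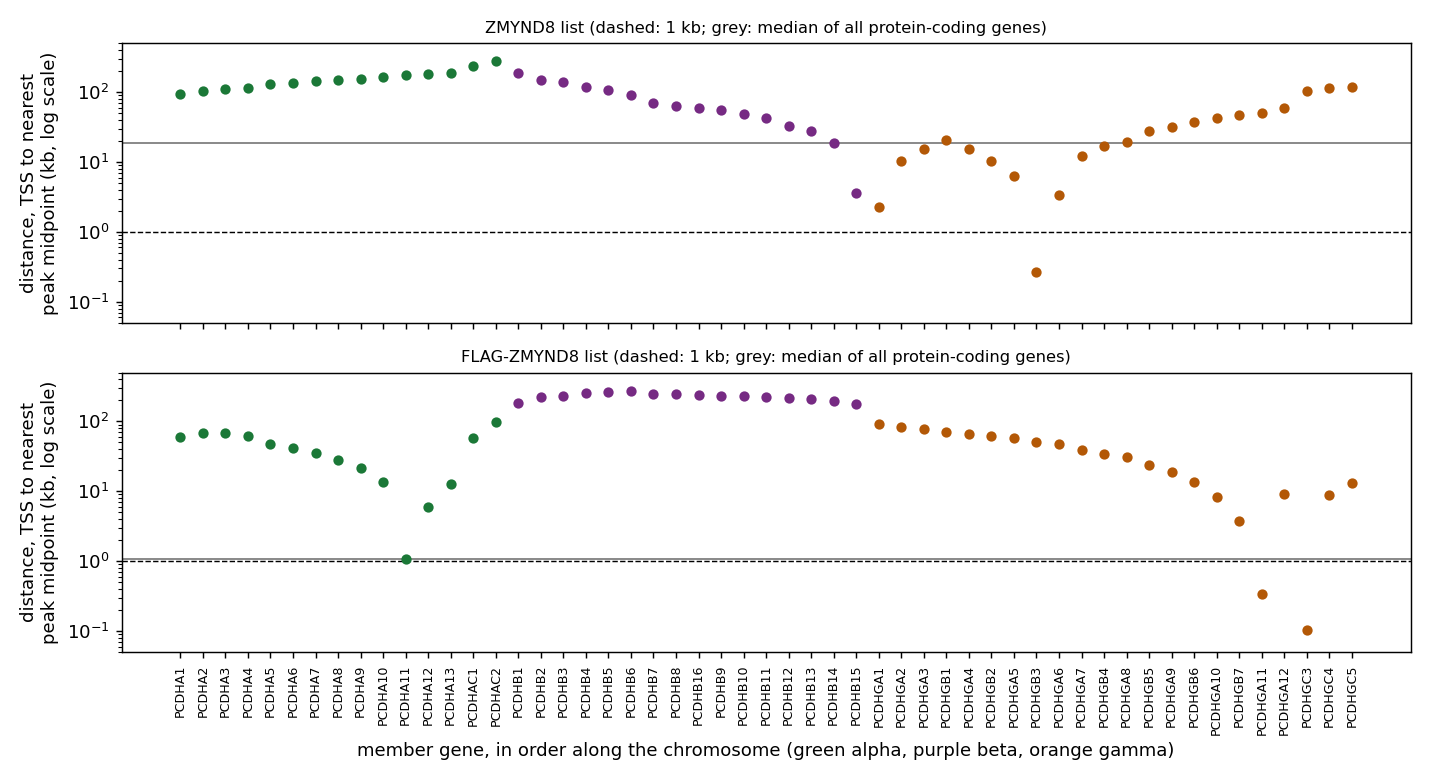
Distance in kb on a log axis from each member TSS to the nearest peak midpoint of the ZMYND8 list (upper panel) and the FLAG-ZMYND8 list (lower panel), 1 point per gene in chromosome order, coloured by cluster. The dashed line marks the 1 kb window and the grey line the median of all protein-coding genes; PCDHGB3 lies below the dashed line in the upper panel, and PCDHGA11 and PCDHGC3 do in the lower.

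Between peaks lay long stretches without any. A FLAG-ZMYND8 gap of 552 kb ran from PCDHA11 to PCDHGA11 and held 38 member TSSs, all 16 of the beta genes among them. Of the 63665 gaps between neighbouring FLAG-ZMYND8 peaks in the genome 742 were as long, or 1.17%, and the median gap was 6.57 kb. In the ZMYND8 list, a gap of 551 kb held 30 member TSSs, namely the 15 alpha genes and all beta genes but PCDHB15. Here 7.5% of the 15062 gaps of the list were as long, with a median of 60.8 kb. A second ZMYND8 gap of 398 kb began at PCDHGB3 and held the last 14 gamma TSSs, and 10.4% of gaps were as long. These gaps were picked out after their lengths were seen.

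The genes stood close together, with 72.9 member TSSs per Mb beside 7.09 protein-coding TSSs per Mb over the autosomes and X. Peaks did not follow that density. ZMYND8 peaks numbered 5.5 per Mb over the 727 kb, near the 5.32 of the genome and the 4.4 of chromosome 5. FLAG-ZMYND8 peaks numbered 4.13 per Mb, beside 22.5 for the genome and 17.4 for chromosome 5. In the 200 kb before PCDHA1 there were 4 ZMYND8 and 7 FLAG-ZMYND8 peaks, and in the 200 kb after the gamma constant exons there were 0 and 9. FLAG-ZMYND8 peaks were thus denser on both sides, at 35 and 45 per Mb, than among the protocadherin genes, whereas ZMYND8 peaks were denser only before them.

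Within the array the peaks kept to exons. The variable first exons cover 143 kb and held 1 ZMYND8 and 3 FLAG-ZMYND8 peaks. Exons of other genes and pseudogenes cover 35 kb and held the remaining 3 ZMYND8 peaks. The 1 kb windows before member TSSs, 50.8 kb in all, held none of either list, nor did the 493 kb of remaining space. Annotated exons of any kind make up 34.2% of the 727 kb and held 7 of the 7 peaks. Over the genome exons make up 5.49%, and 30.5% of the ZMYND8 list and 20.2% of the FLAG-ZMYND8 list had their midpoint in an exon, so peaks favoured exons there as well. Coding exons over the genome carried 35.5 ZMYND8 and 106 FLAG-ZMYND8 peaks per Mb. The variable coding exons of the protocadherin genes, 0.1297 Mb, carried 1 and 2, or 7.71 and 15.4 per Mb.

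No peak lay in a constant exon, which together span 5.05 kb. These exons code for the cytoplasmic tail that all alpha or all gamma proteins share. In the alpha cluster they measure 59, 89 and 2721 bp, and the nearest FLAG-ZMYND8 edge was 109585, 113111 and 140263 bp away. In the gamma cluster they measure 59, 89 and 2029 bp, with the nearest FLAG-ZMYND8 edge at 18429, 7813 and 319 bp. That last neighbour was the peak chr5:140892861-140893077 on hg19, 217 bp wide with 18 CpG sites at 67.3% GC, just past the last gamma exon. Another FLAG-ZMYND8 peak of 167 bp followed with its midpoint 1134 bp past the last member base. The nearest ZMYND8 edge was over 100 kb from every constant exon, from 124225 bp at the gamma end to 262739 bp at the alpha end.

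The 3 ZMYND8 peaks outside protocadherin coding exons lay at or between the beta and gamma clusters. The 1 in the beta cluster lay outside the variable exons, and its position and sequence are not reported here. It ends the 551 kb gap, and the ZMYND8 distances of all 16 beta genes are measured to it. Of its 50-base words 73.5% were unique in hg19, and some of the others occurred in beta genes, so the reservation made for PCDHA11 holds for it too. In the space before the gamma genes, a peak of 188 bp lay 259 bp downstream of the TSS of TAF7, a subunit of the general transcription factor TFIID, in an untranslated exon. It was the only ZMYND8 peak of the 4 wider than 151 bp. The last, of 151 bp at chr5:140707739-140707889, lay in an exon of a long non-coding RNA, 2267 bp before the PCDHGA1 TSS, and had no CpG site at 52.3% GC.

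Promoters of the protocadherin genes differed in base composition from most others. Over the 300 bases from 250 before to 50 after the TSS, the median GC content was 39.3% beside 60.3% for all protein-coding genes, and the median number of CpG sites 7 beside 18. The observed count of CpG sites divided by that given by base composition was 0.555 at the median beside 0.694. Promoter GC ranged from 27% at PCDHA11 to 66% at PCDHAC1, with medians of 36% for alpha, 40.3% for beta and 41.7% for gamma. These windows follow the annotated TSS, which lies 921 bp before the start codon in PCDHA11, 724 bp in PCDHA9, 594 bp in PCDHAC1 and 2657 bp in PCDHGA8. The window of PCDHGA8 falls within the variable coding exon of PCDHGB4. The 5 C-type promoters stood at the upper end, with 66% at PCDHAC1, 62.3% at PCDHAC2, 59.7% at PCDHGC3, 55.3% at PCDHGC4 and 55.7% at PCDHGC5. The variable coding exons were richer in GC than the promoters before them, with a median of 55.3% and a range of 48.5% to 58.5%. All 3 peaks inside those exons were at or above that median, at 57%, 60.9% and 63.2%.

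**Figure D3:**
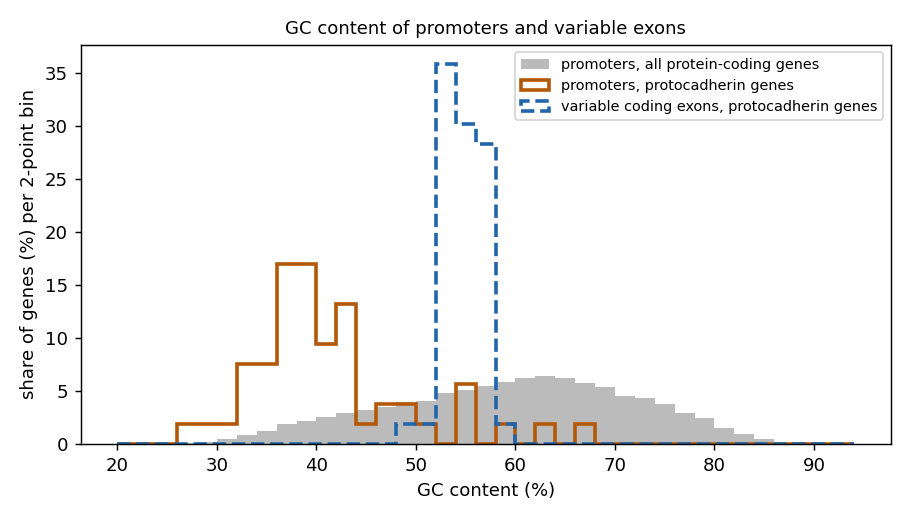
Share of genes in percent per 2-point bin of GC content, for the 300-base promoters of all protein-coding genes (grey), the promoters of the 53 protocadherin genes (orange line) and their variable coding exons (dashed blue line). The orange line peaks left of the grey bars, with medians of 39.3% and 60.3%, and the coding exons gather around 55.3%.

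Because both lists favoured GC-rich promoters, the genes were also set beside others on the same side of 50% promoter GC, a boundary chosen after the values were seen. Of all protein-coding genes with promoter GC under 50%, 9.73% had a ZMYND8 peak within 1 kb, against 34.3% of those at 50% or above. The FLAG-ZMYND8 shares were 18.3% and 58.7%. Among the 46 protocadherin genes under 50%, 1 was in the ZMYND8 list and 1 in the FLAG-ZMYND8 list, each 2.17%. Among the 7 at 50% or above, 0 were in the ZMYND8 list and 1 in the FLAG-ZMYND8 list, or 14.3%. These 7 were the 5 C-type genes, PCDHGA8 and PCDHGB6, and the PCDHGA8 window is coding sequence of PCDHGB4. In both classes and both lists the protocadherin share was below the background, though 7 genes give a coarse share. GC content was not matched within a class, so this is not a comparison at like GC. The median promoter GC of the protocadherin genes was 38.5% in the lower class and 55.7% in the upper, beside 60.3% for all protein-coding genes together. With 53 genes in 1 locus that share peaks and promoter type, no test of the difference was made.

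**Figure D4:**
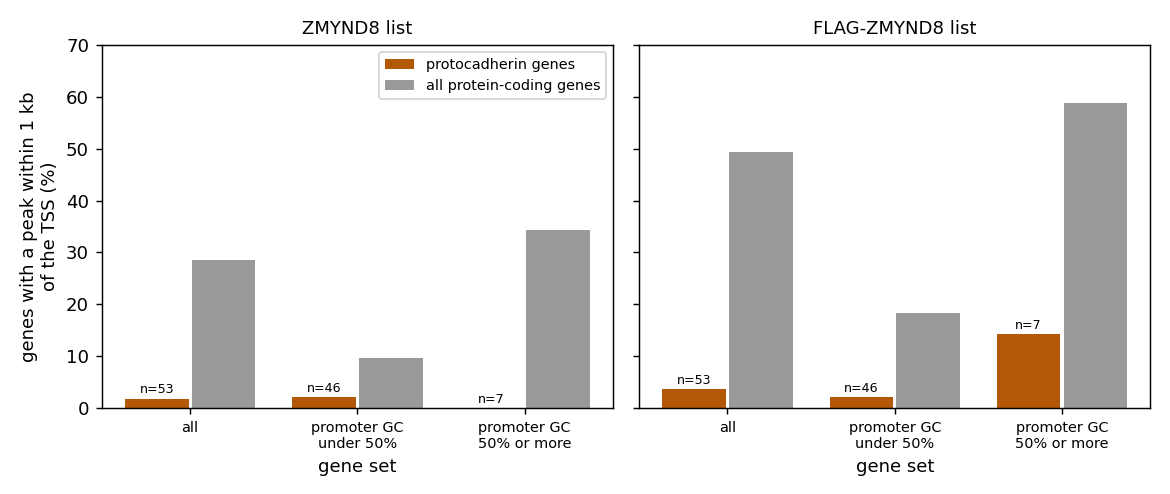
Percent of genes with a peak midpoint within 1 kb of the TSS in the ZMYND8 list (left) and the FLAG-ZMYND8 list (right), for the protocadherin genes (orange, n above each bar) and all protein-coding genes (grey), together and split at a promoter GC of 50%. Each orange bar is lower than the grey bar beside it, and the left panel has no orange bar for the 7 genes at 50% or above.

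The conserved promoter element was looked for next, first by its CGCT core on both strands of the 300-base promoters. The core was present in 51 of 53 promoters, or 96.2%, beside 77% of all protein-coding promoters. PCDHA11 and PCDHGC5 had none, the window of PCDHA11 being set by a TSS 921 bp before its start codon. The longer word GNCGCT, which holds the core and was chosen after the sequences were seen, is more selective. On both strands it was in 48 of 53 promoters, or 90.6%, beside 49.4% of all. Among promoters under 50% GC it was in 42 of 46 of the protocadherin genes, or 91.3%, beside 13.3% of 4688.

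On the plus strand of the 300 bases before the start codon GNCGCT occurred in 49 of the 53 genes, 14 of 15 alpha, 15 of 16 beta and 20 of 22 gamma. PCDHA9, PCDHB6, PCDHGB7 and PCDHGC5 had no match there. Its distance to the start codon had a median of 192 bp in the alpha, 234 bp in the beta and 229 bp in the gamma genes. Examples from each cluster are given with 10 bases on both sides and the match in capitals, for genes with a peak and for neighbours without.
PCDHA1 (alpha, no peak): gccacatgatGTCGCTgtacaccaca
PCDHA11 (alpha, FLAG-ZMYND8 peak): ggcgcaaggtGTCGCTctttacttgg
PCDHB13 (beta, no peak): gacgcgtggtGGCGCTgcaggataag
PCDHB15 (beta, no peak): aacgcatggtGGCGCTgcaggctaag
PCDHGB3 (gamma, ZMYND8 peak): ggcgccgggtGCCGCTcttggctagt
PCDHGA11 (gamma, FLAG-ZMYND8 peak): ggctctaggcGCCGCTgctcaccaat
PCDHGA12 (gamma, no peak): gactctgagcGCCGCTgttcaccaat
PCDHGC3 (gamma, FLAG-ZMYND8 peak): gactctgtgtGCCGCTgtcggccaat
The spelling went with the cluster. GTCGCT was found in 13 alpha genes, 3 beta genes and 6 gamma genes, GGCGCT in 2 alpha, 14 beta and 3 gamma genes, and GCCGCT in 1 beta and 14 gamma genes. Genes with and without a peak had the word, which 49 of the 53 held. None of its 62 plus-strand matches in the 300 bases before the start codons lay under a peak. The peaks at PCDHA11, PCDHGB3 and PCDHGA11 began after the start codon, where no match was sought, so they could not cover any of the 62. The peaks do not all lack the word, however. The PCDHGA11 peak sequence shown above holds GACGCT in its coding bases. AGCGGC, which is GCCGCT on the other strand, is in the PCDHA11 and PCDHGA11 peaks. The PCDHA11 peak began 247 bases after its match, the PCDHGB3 peak 250 bases and the PCDHGA11 peak 269 bases after theirs. A match is a description of the letters and says nothing of CTCF binding, which was not measured.

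PCDHGC3 had the most matches, 4 on the plus strand before its start codon, with another further upstream. The 250 bases before its TSS are shown with GNCGCT in capitals, since the peak of this gene began 50 bases after the nearest match.
PCDHGC3 promoter (chr5:140855264-140855513 on hg19, plus strand): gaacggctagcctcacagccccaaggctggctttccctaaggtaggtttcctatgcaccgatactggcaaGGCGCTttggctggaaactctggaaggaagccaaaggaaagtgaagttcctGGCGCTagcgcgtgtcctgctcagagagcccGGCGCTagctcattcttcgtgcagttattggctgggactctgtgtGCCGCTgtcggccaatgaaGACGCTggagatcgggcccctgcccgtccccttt

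**Figure D5:**
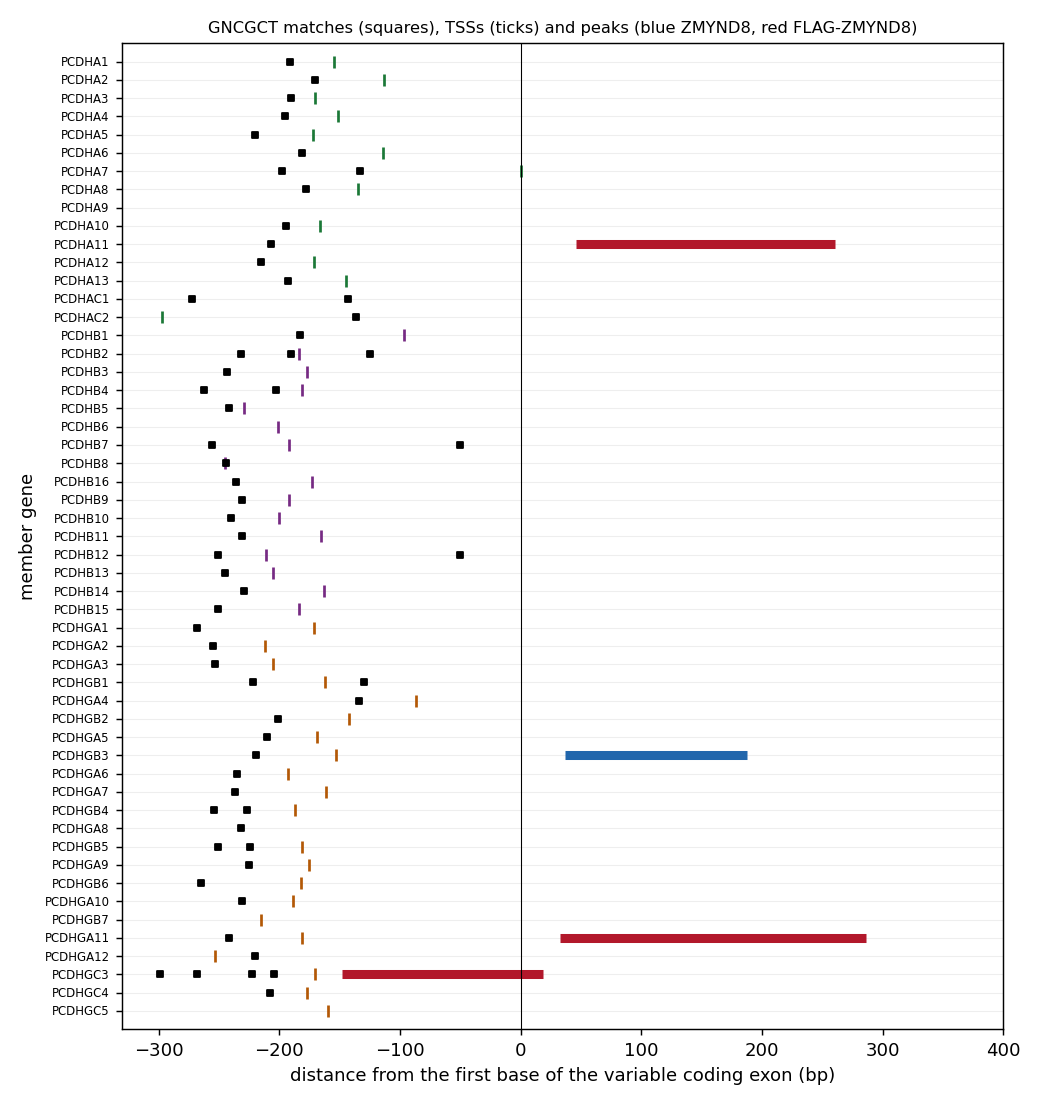
Each row is a protocadherin gene in chromosome order, and the horizontal axis is the distance in bp from the first base of its variable coding exon. Squares mark GNCGCT on the plus strand within 300 bases before it, coloured ticks the annotated TSS where it lies in view, the blue bar the ZMYND8 peak and red bars the FLAG-ZMYND8 peaks; most squares lie left of the TSS ticks, 3 bars start 33 to 46 bp into the coding exon, and the PCDHGC3 bar straddles its start.

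Genes next to the array differed from it and from each other. SLC25A2, a mitochondrial carrier gene between the beta and gamma clusters, had no peak within 1 kb, while TAF7 beside it had the ZMYND8 peak described above and no FLAG-ZMYND8 peak. Within the clusters, neither AC005609.1 nor ENSG00000279983 had a peak at its TSS. ZMAT2, the last gene before PCDHA1, had its nearest midpoints 7541 and 7045 bp upstream. DIAPH1, an actin-nucleating formin gene after the gamma cluster, had a FLAG-ZMYND8 peak of 296 bp centred 188 bp upstream of its TSS. The divergent histidyl-tRNA synthetase genes HARS1 and HARS2 had a peak of each list within 1 kb of both start sites. Of the 18 neighbours within 200 kb, 4 had a ZMYND8 peak, or 22.2%, and 9 a FLAG-ZMYND8 peak, or 50%, shares near the backgrounds of 28.5% and 49.3%.

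Protocadherin genes outside the array were looked at for comparison. These genes are scattered over the genome and have no shared constant exons. Of the 12, 5 had a FLAG-ZMYND8 peak within 1 kb, or 41.7%, and 1 had a ZMYND8 peak, or 8.33%. PCDH7 had both, with a ZMYND8 peak of 351 bp centred 908 bp upstream and a FLAG-ZMYND8 peak 348 bp downstream of its TSS. The others with a FLAG-ZMYND8 peak were PCDH1 at 506 bp, PCDH8 at 199 bp and PCDH12 at 398 bp downstream, and PCDH9 at 626 bp upstream, named after their values were seen. The median promoter GC of the 12 was 57.5%, above that of the clustered genes. The FLAG-ZMYND8 share of the 12 was closer to the background than that of the 53.

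Genes for proteins that act on the protocadherin array or downstream of its products were also counted, beside the same backgrounds of 28.5% and 49.3%. Of 14 genes for CTCF, cohesin and other architectural or silencing factors, 7 had a ZMYND8 peak, or 50%, and 10 a FLAG-ZMYND8 peak, or 71.4%. The 7 with both were the cohesin ring genes RAD21 and SMC1A, the alternative cohesin subunits STAG1 and STAG2, the loader NIPBL, the release factor WAPL and its partner PDS5A. Counting only the peak of each list nearest the TSS, STAG1 had the widest, a ZMYND8 peak of 1417 bp centred 157 bp downstream. CTCF itself had FLAG-ZMYND8 peaks, the nearest 559 bp upstream, and no ZMYND8 peak within 33203 bp. Of 10 genes for kinases, actin regulators and proteases that act with protocadherins, 7 were in the ZMYND8 list and 7 in the FLAG-ZMYND8 list, each 70%. Both lists had peaks at PTK2B, a kinase held in check by protocadherin tails, RAC1, the actin-regulating GTPase, NCKAP1 and ABI1 of the WAVE complex, and ADAM10, which sheds protocadherin ectodomains. Median promoter GC was 69.2% in the architectural list and 62.5% in the signalling list, and its part in these shares was not tested.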

How the data were processed

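The authors mapped reads of crosslinked, micrococcal nuclease-digested chromatin to hg19 with BWA-MEM (BWA 0.7 per the labels) and made profiles with HOMER. They deposited 1 peak list per target, with 6 columns and a score that is 1 in all rows. The calling settings and the way the 2 replicates were combined are not given in the sources used here. Depth is unknown.

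TSSs were the 5′ ends of genes in GENCODE release 44 on GRCh37, and each peak was placed by its midpoint. A variable first exon ran from the TSS to the end of the gene's own coding exon. Overlap meant 1 bp or more. Composition, words and motifs came from hg19. No test was run, because each target has 1 list. Members and gene lists were chosen with earlier results of these data known, and the GC boundary, GNCGCT, gaps, nearest distances and shared words after values were seen. By rule, the genes named were members with a peak within 1 kb, C-type members, genes of the comparison lists with peaks of both lists, and genes between or beside the clusters. Others, named as extremes, exceptions or sequence examples, were chosen after their values were seen. Word searches were tested on simulated data. Python 3.11.15, numpy 2.4.6, pysam 0.24.0 and matplotlib 3.10.9 were used. The sequence of 1 ZMYND8 peak is not reported here.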

Additional observations from a re-analysis of the deposited data

How the results depend on the processing

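The counts at member TSSs are small, so 1 peak moves them. The ZMYND8 count of 1 became 2 with a window of 3 kb, by adding PCDHGA1, beside a background of 34.1%. With only peaks wider than the commonest width it became 0, beside 19.7%, and the count in variable exons also became 0, since the PCDHGB3 peak has that width. The FLAG-ZMYND8 count of 2 became 1 with wider peaks, beside 39.1%, by losing PCDHGC3. It was 3 with 3 kb, with any base of the peak or with any transcript start, each time by adding PCDHA11. The backgrounds at these settings were 58.1%, 50.7% and 59%. A window of 500 bp left 1 and 2 genes, beside backgrounds of 21.5% and 37.6%. The overlap between lists stayed at 0 with 50% reciprocal overlap, again without a share over the whole lists beside it. No paired analysis was possible because each target has 1 list and no replicates in it. Depth limits what a gene without a peak can show, and it is unknown.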

Other observations

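Pairs of protocadherin genes shared long stretches of sequence around the start site. Besides PCDHB8 and PCDHB13, the pairs with 200 or more 50-base words in common within 1 kb of the TSS were PCDHGB4 and PCDHGB5 with 477, PCDHB9 and PCDHB10 with 337, PCDHGB6 and PCDHGB7 with 233, and PCDHA6 and PCDHA8 with 218. None of these genes had a peak of either list within 1 kb, as was the case for 50 of all 53 members. Whether reads on the shared words were kept, spread or dropped in mapping is not given in the sources used here, and its part in the missing peaks was not tested. Of the 25 genes whose words within 1 kb were all unique, PCDHGB3, PCDHGA11 and PCDHGC3 were the genes with a peak within 1 kb. PCDHA11 was also among the 25, with its peak midpoint just outside at 1074 bp and 69.3% unique words in the peak itself. Only 3 of the 53 members had a peak within 1 kb, and a link with unique sequence was not tested.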
